A study of Mus musculus with 18 samples.

Results

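The comparison of *Fmr1* siRNA B with Scramble siRNA B used 6 of the 18 RNA-seq libraries of the series, 3 for each siRNA, chosen by the siRNA named in their labels. All came from Neuro-2a (N2A) cells, a mouse neuroblastoma line with noradrenergic features, and both groups were transfected with siRNA by RNAiMAX and collected 72 h later. The *Fmr1* group received the second of 2 siRNAs against *Fmr1*, and the controls received the second of 2 Scramble siRNAs, which match no intended target. The 3 replicates of a siRNA were repeated knockdowns in one cell line, so p-values measure only the spread between these knockdowns. An effect of *Fmr1* loss cannot be told apart from other effects of this one siRNA sequence. RNA was total RNA depleted of rRNA, and the values are counts of reads on the exons of each gene.

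*Fmr1* encodes FMRP, an RNA-binding protein whose loss causes fragile X syndrome and which represses translation of many neuronal mRNAs by stalling ribosomes. FMRP acts with its paralogs FXR1 and FXR2 and with the CYFIP and WAVE proteins, which link it to translation and to actin. Stalled and collided ribosomes are handled by no-go decay, in which the ubiquitin ligase ZFP598 marks the collided ribosomes and the mRNA is cut and degraded. The study asked whether FMRP directs its target mRNAs into no-go decay in N2A cells, and looked for transcripts whose level rose on depletion of FMRP and of ZFP598. The comparison described here bears on the first of these depletions, by one siRNA.

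The 6 libraries held 13408624 to 15414590 counts. *Fmr1* siRNA B replicate 1 had a count for 30124 genes, whereas the other 5 libraries had one for 25965 to 26623. Of 22 listed markers of pluripotent stem cells, 21 were found by name among the counted genes. In that library all 21 had a count, against 8 to 11 in the other 5. *Pou5f1*, a defining transcription factor of these cells, had 34 counts there and 0 in each of the other 5, *Nanog* had 110 counts against 2 to 8, and *Zfp42* had 102 against 0 to 1. All 4 Y-linked genes examined had counts in it (172 in sum), and none had a count in any of the other 5 libraries. The summed level of 24 noradrenergic neuroblastoma markers was 4863 CPM (the count scaled to a common library size) in replicate 1, 5646 to 5812 CPM in the other *Fmr1* siRNA B libraries and 4751 to 5303 CPM in Scramble siRNA B, with 21 to 24 of the 24 counted in every library. The labelled cell type was therefore seen in all 6, and replicate 1 stood apart, so each count and each named gene below was also computed without it.

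**Figure D1:**
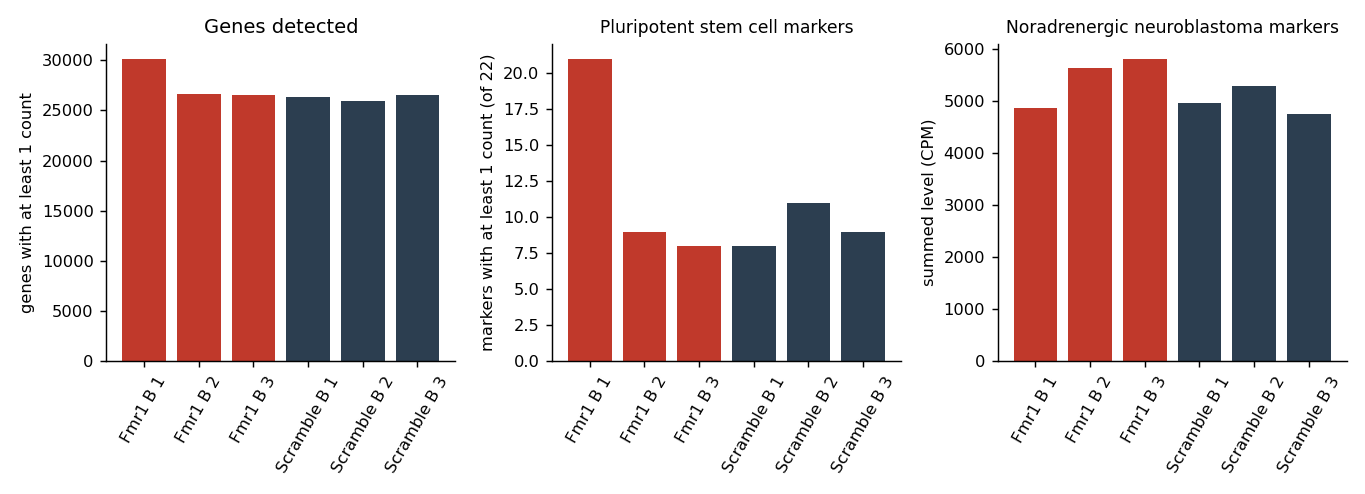
Bars show, for each of the 6 libraries, the number of genes with at least 1 count (left), the number of 22 pluripotent stem cell markers (21 found by name among the counted genes) with at least 1 count (middle) and the summed CPM of 24 noradrenergic neuroblastoma markers (right), with *Fmr1* siRNA B in red and Scramble siRNA B in dark blue. *Fmr1* siRNA B replicate 1 stands above the other 5 libraries in the left panel (30124 genes) and the middle panel (21 markers), whereas the right panel has all 6 libraries between 4751 and 5812 CPM.

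*Fmr1*, at chrX:67722124-67761578 on the forward strand of GRCm39, was the check of the knockdown. Its level was 27.3, 25.2 and 27.0 CPM in the *Fmr1* siRNA B libraries and 68.5, 64.9 and 61.6 CPM in the Scramble siRNA B libraries. The groups did not overlap, and the level fell to a mean of 26.5 ± 1.15 CPM from 65.0 ± 3.45 CPM (SD, n = 3 each). This is a log2 fold change of -1.29 (SE 0.12, adjusted p = 1.15e-07, quasi-likelihood test of edgeR, adjusted by Benjamini-Hochberg over all tested genes). A two-sided exact permutation test of 3 against 3 libraries gave p = 0.1, the smallest it allows, so no single gene can pass 0.05 in that test.

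The paralogs were not distinguishable from the control. *Fxr1* stood at 192, 190 and 201 CPM against 199, 199 and 210 CPM, a log2 fold change of -0.06 (SE 0.08, adjusted p = 0.654, edgeR). *Fxr2* stood at 58.4, 57.4 and 67.5 CPM against 65.8, 68.2 and 72.4 CPM (log2 fold change -0.17, SE 0.09, adjusted p = 0.202, edgeR). For both genes the values of the 2 groups overlapped. Of the 23 genes for the FMRP family and its protein partners, 4 fell (17.4%) and 2 rose (8.70%) at an adjusted p under 0.05. Over all tested genes these shares were 10.4% and 11%. *Fmr1* was the only one of the 23 that changed more than 2-fold. The median was -0.11, and -0.03 against Scramble siRNA A. The other falls were those of *Abi2* (log2 fold change -0.73) and *Nckap1* (-0.47), both subunits of the WAVE actin regulator, and *Ago2* (-0.42), the Argonaute that cuts siRNA targets. *Cyfip1* (0.25) and *Cyfip2* (0.44), which bind FMRP, rose, though *Cyfip1* did not pass without replicate 1 or 3 of *Fmr1* siRNA B or replicate 3 of Scramble siRNA B (adjusted p = 0.0574 to 0.0596, edgeR), nor *Cyfip2* without the last of these (adjusted p = 0.0551, edgeR).

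Across all 19003 genes tested, 608 were higher (3.2%) and 185 lower (0.974%) with *Fmr1* siRNA B at an adjusted p under 0.05 and a change of more than 2-fold, here called genes. Without the fold criterion 2098 genes were higher (11%) and 1968 lower (10.4%), and the median log2 fold change of all tested genes was 0.01. Of all genes at an adjusted p under 0.05, calls included, 51.6% were higher, or 70.0% when libraries were scaled by their totals in place of TMM. Of the higher calls, 408 averaged fewer than 50 counts, as did 82 of the lower calls. Over 4-fold were 108 of the genes called higher, of which 11 had a mean of at least 50 counts, and 11 of those called lower. Protein-coding genes made up 484 of the higher and 120 of the lower calls, and long noncoding RNA genes 61 and 31.

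Without *Fmr1* siRNA B replicate 1 the numbers were 479 higher (2.46% of 19490 tested) and 200 lower (1.03%). Of the genes called with all 6 libraries, 423 of the 608 higher and 155 of the 185 lower were called again. The losses lay in weakly counted genes, since 190 of the 200 higher and 101 of the 103 lower calls with a mean of at least 50 counts were kept. In 31 of the genes called higher, replicate 1 was more than 3 times above both other *Fmr1* siRNA B libraries.

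The Scramble siRNA chosen as the control also set many calls. Against the 3 libraries of Scramble siRNA A, which share no library with the control used here, *Fmr1* siRNA B had 338 genes called higher (1.78%) and 155 lower (0.816%). Both comparisons share the 3 *Fmr1* siRNA B libraries. Of the 608 higher calls, 135 were also called against Scramble siRNA A, which is 22.2% of the 608 and 39.9% of the 338. For the lower calls the number was 40, or 21.6% of the 185 and 25.8% of the 155. No gene was called in opposite directions, and the log2 fold change had the same sign for 531 of the 608 and 170 of the 185. Because of this difference the value against Scramble siRNA A is given beside most of the lists described and for many of the genes named. A gene given without that value need not be called against Scramble siRNA A.

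**Figure D2:**
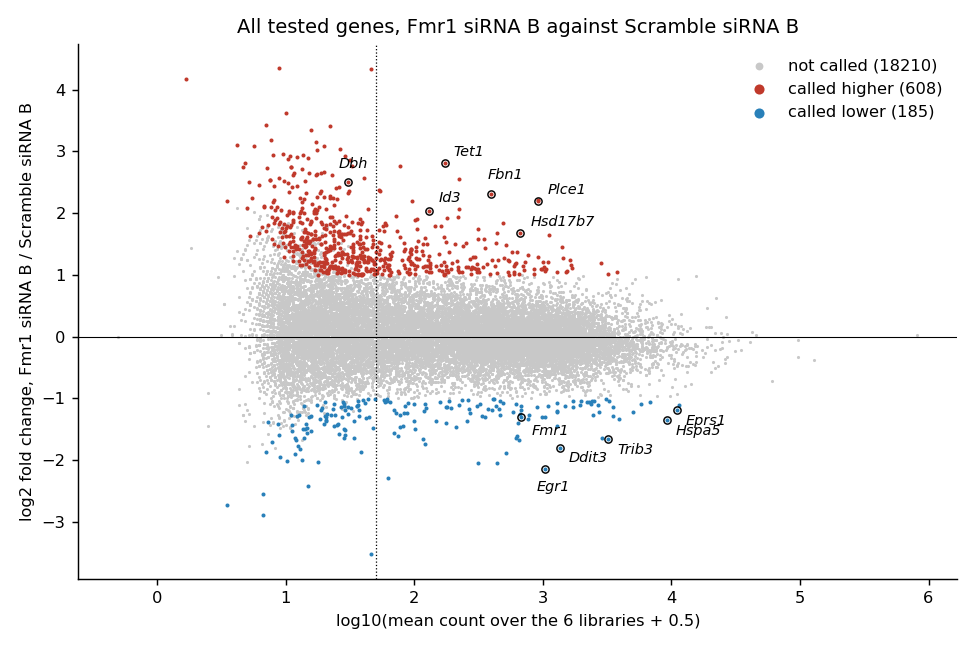
Each point is 1 of the 19003 tested genes, with log10 of the mean count over the 6 libraries plus 0.5 on the x axis and the log2 fold change of *Fmr1* siRNA B over Scramble siRNA B on the y axis. Genes called higher (608) are red and genes called lower (185) blue, the dotted line marks a mean of 50 counts, and most red points lie left of it while *Trib3*, *Hspa5* and *Eprs1* lie far to its right.

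Of the gene lists examined, that of the integrated stress response had the largest share of members that fell. In this response, kinases that sense amino acid shortage, unfolded proteins or stalled ribosomes phosphorylate eIF2alpha, which lowers general translation while favouring that of the transcription factor ATF4, and ATF4 then induces genes for amino acid supply, tRNA charging and recovery. Of 48 tested ATF4 targets, 36 fell (75.0%, against 10.4% of all tested genes) and 2 rose, and 10 did not pass. The median log2 fold change was -0.54, against 0.01 over all tested genes, and 7 members were called lower (14.6%, against 0.974%) and none higher. Without replicate 1 the median was -0.51 with the same number called, and against Scramble siRNA A it was -0.44 with 30 members lower and none higher at an adjusted p under 0.05.

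*Ddit3* (CHOP), a transcription factor of prolonged stress at chr10:127124268-127132163, stood at 39.1, 39.8 and 43.7 CPM with *Fmr1* siRNA B and at 118, 128 and 180 CPM with Scramble siRNA B. Every *Fmr1* siRNA B library was below every control library, and the log2 fold change was -1.80 (SE 0.12, adjusted p = 3.55e-09, edgeR). Scramble siRNA A had 108, 109 and 118 CPM, and the log2 fold change against it was -1.45. *Trib3*, a pseudokinase that restrains ATF4 and CHOP, had 108, 104 and 102 CPM against 303, 307 and 384 CPM, with a log2 fold change of -1.66 (SE 0.16, adjusted p = 3.6e-07, edgeR) and no overlap. It was also called lower against Scramble siRNA A (-1.31).

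*Ppp1r15a* (GADD34), the phosphatase subunit that reverses eIF2alpha phosphorylation, fell by 1.61 on the log2 scale, from 50.1, 53.5 and 87.5 CPM to 19.4, 22 and 21.2 CPM. *Atf3*, a transcription factor induced by ATF4, fell from 24.3, 25.1 and 27.2 CPM to 10.1, 11.0 and 11.4 CPM (log2 fold change -1.24, and -1.75 against Scramble siRNA A). Neither gene had overlapping groups. *Eprs1*, the glutamyl-prolyl-tRNA synthetase, was among the most counted of the called genes, with 448, 452 and 460 CPM against 1019, 999 and 1088 CPM (log2 fold change -1.19, SE 0.08, adjusted p = 2.52e-09, edgeR). *Aldh1l2*, a mitochondrial folate enzyme, fell by 1.14 (-0.62 against Scramble siRNA A). *Eprs1* was at -0.67 against Scramble siRNA A, and neither of these genes was called there. *Atf4* mRNA itself fell less, from 544, 557 and 723 CPM to 397, 420 and 477 CPM (log2 fold change -0.50, adjusted p = 0.038, edgeR), and did not pass without *Fmr1* siRNA B replicate 1 or 2 or Scramble siRNA B replicate 3 (adjusted p = 0.104 to 0.194). The 2 members that rose were *Slc7a11* (0.42), the cystine transporter, and *Gpt2* (0.72), an alanine aminotransferase. The rise of *Slc7a11* did not pass without *Fmr1* siRNA B replicate 1 or without Scramble siRNA B replicate 1 or 2 (adjusted p = 0.0567 to 0.0814, edgeR).

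Cytosolic tRNA synthetases, of which the ATF4 list holds many, fell in 14 of 20 cases (70%, against 10.4% of all tested genes). None rose (against 11%), and the median log2 fold change was -0.37. *Gars1* fell by 0.81 and *Wars1* by 0.95. Against Scramble siRNA A the median was -0.24 with 9 of 20 lower, and there *Wars1* had a log2 fold change of -0.02 (adjusted p = 0.938, edgeR), with 87.5 to 108 CPM in Scramble siRNA A and 162 to 236 CPM in Scramble siRNA B.

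Genes of the unfolded protein response and of protein folding in the endoplasmic reticulum (ER) formed the other list with many falls. ER chaperones bind new secretory proteins, and the sensors ATF6, IRE1 (*Ern1*) and PERK (*Eif2ak3*) raise chaperone transcription when unfolded proteins build up. Of 37 tested members, 22 fell (59.5%, against 10.4% of all tested genes) and 3 rose (8.11%, against 11%), with a median of -0.33. Calls were 5 lower (13.5%, against 0.974%) and 1 higher (2.70%, against 3.2%). Without replicate 1 the median was -0.31 with the same numbers of calls, and against Scramble siRNA A it was -0.39, with 24 members lower and none higher at an adjusted p under 0.05, of which 1 was called.

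*Hspa5* (BiP), the main ER chaperone of the HSP70 family, had 303, 349 and 395 CPM with *Fmr1* siRNA B and 801, 746 and 1124 CPM with Scramble siRNA B. The lowest control library was thus far above the highest *Fmr1* siRNA B library, and the log2 fold change was -1.35 (SE 0.13, adjusted p = 2.12e-07, edgeR). In Scramble siRNA A it had 730, 604 and 678 CPM (log2 fold change -0.94 against this control). Of the sensors, *Atf6* fell from 217, 219 and 263 CPM to 96.3, 95.8 and 98.0 CPM (log2 fold change -1.27) and *Ern1* from 205, 201 and 197 CPM to 91.9, 104 and 93.0 CPM (-1.06). Against Scramble siRNA A, *Atf6* was at -0.68 and *Ern1* at -0.94, and neither was called. *Ero1a*, the oxidase that drives disulfide formation, fell by 1.28, while its values in Scramble siRNA B ranged widely (369, 416 and 230 CPM). The chaperones *Hsp90b1* (-0.77), *Calr* (-0.79) and *Dnajc3* (-0.90) and the transcription factor *Xbp1* (-0.63) fell by less than 2-fold. The called rise was that of *Sec61b* (1.11), a subunit of the translocon, which was at 0.17 (adjusted p = 0.508, edgeR) against Scramble siRNA A.

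Promoters of these genes are shown because members of both lists moved together and 2 short motifs are known to control them. In RefSeq promoter windows of 300 bases (250 before and 50 after each start, table build GRCm38.p6, 14309 windows for 11227 tested genes), the ER stress response element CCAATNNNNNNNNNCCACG was found on either strand in 10 of 31 ER folding genes with an entry (32.3%) and in 0.205% of all tested genes with an entry. The C/EBP-ATF response element TGATGNAA was found in 9 of 32 ATF4 targets with an entry (28.1%) and in 2.81% of all. The median log2 fold change was -0.55 for the 10 ER genes with the motif and -0.28 for the 21 without it, and -0.84 and -0.50 for the 9 and 23 ATF4 targets. The lists were made of genes known for these responses, so a larger share with the motif follows from how they were made. The difference between members with and without a motif was not tested. No stretch shown holds both motifs, and a match describes the sequence only. The stretches below end before the start site, were placed by exact match to GRCm39 and show the motif on either strand in capitals. The first 4 carry the ER stress response element and the last 4 the C/EBP-ATF response element.
Hspa5, chr2:34661997-34662095, forward strand: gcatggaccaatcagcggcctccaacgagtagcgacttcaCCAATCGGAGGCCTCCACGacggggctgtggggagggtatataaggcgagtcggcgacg
Hsp90b1, chr10:86541357-86541558, reverse strand: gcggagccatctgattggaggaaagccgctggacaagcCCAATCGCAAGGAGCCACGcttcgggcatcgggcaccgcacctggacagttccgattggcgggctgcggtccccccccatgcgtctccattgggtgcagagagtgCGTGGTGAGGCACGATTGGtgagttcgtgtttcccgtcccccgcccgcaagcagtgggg
Calr, chr8:85573664-85573762, reverse strand: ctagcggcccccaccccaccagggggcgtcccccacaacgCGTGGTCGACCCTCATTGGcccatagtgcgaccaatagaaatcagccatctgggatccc
Dnajc3, chr14:119175199-119175297, forward strand: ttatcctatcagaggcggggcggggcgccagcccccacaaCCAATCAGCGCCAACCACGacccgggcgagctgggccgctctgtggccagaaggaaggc
Atf3, chr1:190915593-190915680, reverse strand: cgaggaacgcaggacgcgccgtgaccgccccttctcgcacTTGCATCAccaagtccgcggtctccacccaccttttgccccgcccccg
Chac1, chr2:119181490-119181577, forward strand: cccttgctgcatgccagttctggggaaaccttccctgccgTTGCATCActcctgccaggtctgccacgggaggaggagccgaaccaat
Nupr1, chr7:126224705-126224792, reverse strand: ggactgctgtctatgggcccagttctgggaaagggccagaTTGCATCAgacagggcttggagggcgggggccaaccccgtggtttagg
Asns, chr6:7693210-7693272, reverse strand: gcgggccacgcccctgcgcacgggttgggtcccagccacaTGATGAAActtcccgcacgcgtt
*Hsp90b1* held 2 copies of its motif and the others 1. *Chac1* (log2 fold change -0.89), *Nupr1* (-1.05) and *Asns* (-0.47), all induced by ATF4, fell with *Fmr1* siRNA B. The stretches shown all came from genes that fell, but not every gene with a motif did. *Slc7a11* (0.42), *Pck2* (0.05) and *Jdp2* (0.04) of the ATF4 list carried its motif. *Derl3* (0.21) and *Syvn1* (0.07) of the ER list carried the other. *Ddit3* (-1.80) and *Ppp1r15a* (-1.61) had no match in their windows.

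Glycolysis and hypoxia genes also lay below the control. Of 23 glycolysis genes, 10 fell (43.5%, against 10.4% of all tested genes) and 1 rose (4.35%, against 11%), with a median of -0.34. The falls were led by the neuronal enolase *Eno2* (log2 fold change -1.21), with 175, 236 and 209 CPM against 521, 606 and 310 CPM. *Pgk1*, phosphoglycerate kinase, fell by 0.96, and *Pfkfb4* (1.00), which makes the activator of phosphofructokinase, was the member that rose. Of 24 genes of the hypoxia response, 5 fell (20.8%, against 10.4%) and 2 rose (8.33%, against 11%), with a median of -0.39. Among them *Vegfa*, the angiogenic factor, fell by 0.84, and *Ak4*, a mitochondrial adenylate kinase, fell by 1.14. Scramble siRNA B replicate 3 had the lowest value of the 3 Scramble siRNA B libraries for *Eno2*, *Ero1a*, *Ak4* and *Pgk1*, and the medians against Scramble siRNA A were -0.42 and -0.39.

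**Figure D3:**
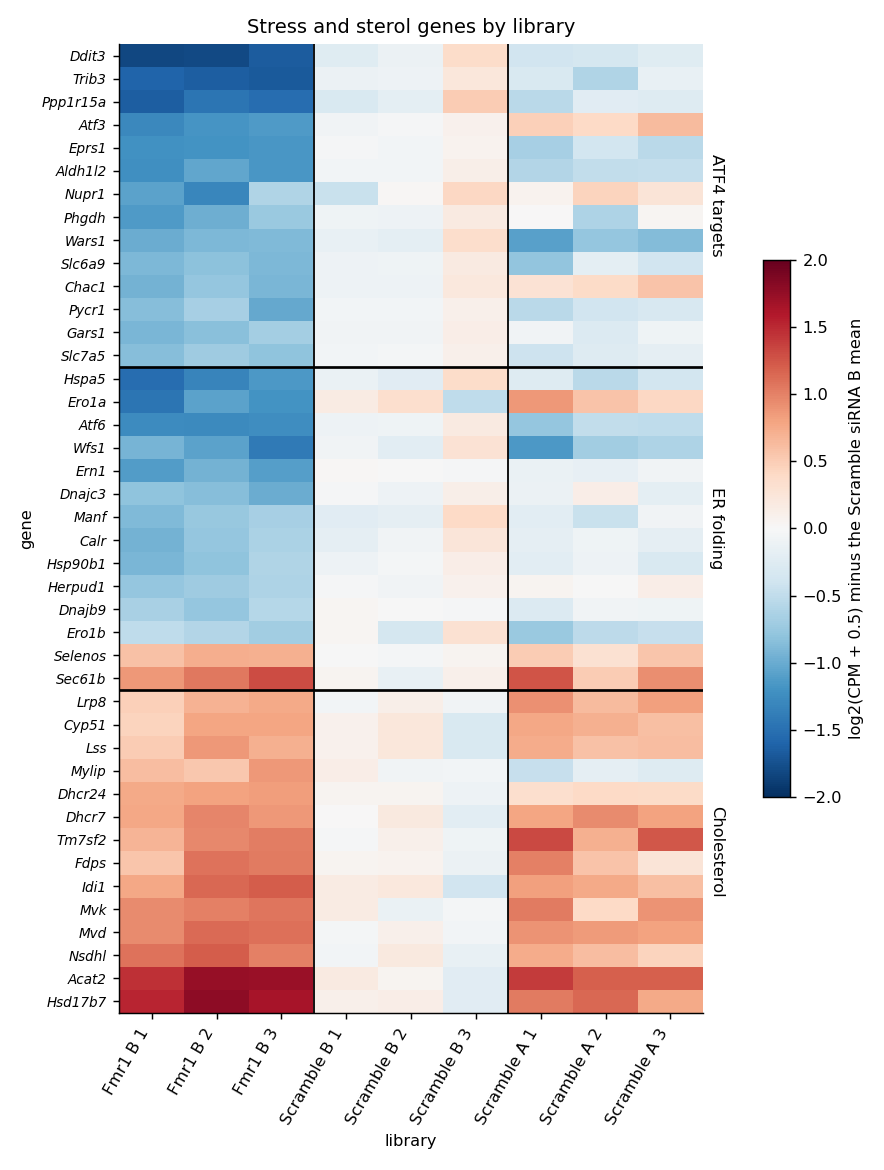
The colour gives log2(CPM + 0.5) minus the mean of the Scramble siRNA B libraries, cut at -2 and 2, for the 14 members of each of 3 lists with the largest log2 fold changes among those at an adjusted p under 0.05 (rows) in 9 libraries (columns). ATF4 targets and nearly all ER folding genes are blue in all 3 *Fmr1* siRNA B libraries and paler or of either sign in Scramble siRNA A (*Eprs1* blue, *Atf3* red), whereas the cholesterol genes are red in *Fmr1* siRNA B and nearly all red in Scramble siRNA A too, as for *Acat2*.

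Most genes of cholesterol synthesis and uptake rose. Its enzymes convert acetyl-CoA through mevalonate to sterols, and the transcription factor SREBP2 induces them together when membrane cholesterol is low. Of 32 tested members, 22 rose (68.8%, against 11% of all tested genes) and *Insig1*, which holds SREBP in the ER, fell (log2 fold change -0.44). The median was 0.58, with 6 members called higher (18.8%, against 3.2%) and none lower. Without replicate 1 the median was 0.66 with 8 called. Against Scramble siRNA A the median was 0.10, with 4 members higher and 1 lower at an adjusted p under 0.05 and none called, so most of this rise was not seen against that control.

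*Hsd17b7*, a sterol ketone reductase, had 62.9, 76.3 and 68.6 CPM against 23.2, 23.7 and 18.4 CPM, with a log2 fold change of 1.67 (SE 0.19, adjusted p = 1.62e-06, edgeR). Scramble siRNA A lay between, at 45.2, 48.5 and 36.8 CPM, and the log2 fold change against it was 0.67 (adjusted p = 0.0116, edgeR). *Acat2*, which condenses acetyl-CoA at the head of the pathway, rose by 1.65 from 41.8, 38.3 and 31.2 CPM to 102, 124 and 123 CPM, while Scramble siRNA A had 98.1, 84.6 and 85.5 CPM. *Mvd* (1.07) and *Idi1* (1.04), the decarboxylase and the isomerase of the mevalonate branch, were called too. Against Scramble siRNA A, *Mvd* was at 0.21 and *Idi1* at 0.32. The sterol regulatory element TCACNCCAC was found in 1 of 23 of these genes with a promoter entry (4.35%) and in 1.35% of all. Of 22 genes of fatty acid synthesis, 8 rose (36.4%, against 11% of all tested genes) and 2 fell (9.09%, against 10.4%), with a median of 0.23. *Fasn*, fatty acid synthase, was at 0.94, and *Fa2h*, the fatty acid 2-hydroxylase, was the called fall. Measured against Scramble siRNA A, their median was 0.03, with 1 higher and 3 lower at an adjusted p under 0.05.

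*Fa2h* had the largest fall of the genes named here, to 0.670, 0.351 and 0.412 CPM from 4.27, 4.85 and 7.72 CPM (log2 fold change -3.53, SE 0.36, adjusted p = 6.46e-07, edgeR). It makes the hydroxylated sphingolipids of myelin. The *Fmr1* siRNA B libraries held 10, 5 and 6 counts of it, and the Scramble siRNA A libraries had 3.96, 2.98 and 2.62 CPM, so it was lower against both controls (-2.70 against Scramble siRNA A).

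Clustered protocadherins, adhesion proteins whose single-cell combinations give neurons a surface identity, all lay above the control. Each of the 56 tested members had a log2 fold change above 0, with a median of 0.68. In all, 38 rose (67.9%, against 11% of all tested genes) and none fell. Of the 38, 10 were called (17.9% of the 56, against 3.2%). They share a chromosomal cluster and, within the alpha and gamma groups, their last exons, so they are not independent and reads on shared exons have uncertain assignment. *Pcdhb3* (log2 fold change 1.34) went from 2.76, 2.03 and 2.68 CPM to 5.29, 7.16 and 6.52 CPM. *Pcdhb22* (1.05) went from 6.44, 6.52 and 4.91 CPM to 12.5, 12.5 and 12.0 CPM. Neither overlapped between groups. Against Scramble siRNA A, *Pcdhb3* was at 0.76 and *Pcdhb22* at 0.54. Without replicate 1 the median was 0.67, and against Scramble siRNA A it was 0.34, with 47 of 56 above 0, 8 higher and 1 lower at an adjusted p under 0.05 and none called.

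Extracellular matrix genes held many called members. Of 52 tested, 25 rose (48.1%, against 11% of all tested genes) and 1 fell (1.92%, against 10.4%), with a median of 0.59. Calls were 15 higher (28.8%, against 3.2%) and 1 lower (1.92%, against 0.974%). Without replicate 1, 12 were called higher, and against Scramble siRNA A the median was 0.13 with 7 called higher and 1 lower. *Fbn1*, the microfibril protein fibrillin-1 at chr2:125142514-125349913, had 42.0, 47.6 and 45.4 CPM against 8.41, 9.06 and 9.63 CPM, a log2 fold change of 2.32 (SE 0.14, adjusted p = 8.01e-10, edgeR). All 3 values were far above the control, and Scramble siRNA A at 13.5, 14 and 16 CPM was also below them (1.63). *Eln*, elastin, rose from 4.14, 4.93 and 4.14 CPM to 21.9, 23.2 and 32.3 CPM (2.55), but Scramble siRNA A had 46.8, 26.9 and 40.8 CPM, so the log2 fold change against it was -0.56 (adjusted p = 0.0833, edgeR). *Col6a1* (1.79, or 0.55 against Scramble siRNA A) and *Mmp15* (1.47, or 0.18), a collagen VI chain and a membrane metalloproteinase, rose, and *Dcn*, decorin, fell by 2.55 on the log2 scale from a low level (0.319 to 1.18 CPM in the control), and did not pass without *Fmr1* siRNA B replicate 3 or Scramble siRNA B replicate 1 (adjusted p = 0.0542 and 0.0918, edgeR). The fibroblast markers as a group did not separate the libraries, with a summed level of 36.1 to 37.9 CPM in *Fmr1* siRNA B and 32.3 to 38.1 CPM in Scramble siRNA B. In bulk RNA, fewer cells of a type and less RNA per cell cannot be told apart.

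Axon guidance, channel and transmitter genes rose more often than they fell. The summed level of 9 mature neuron markers was higher too, at 346 to 368 CPM with *Fmr1* siRNA B and 217 to 263 CPM with Scramble siRNA B, with 6 to 8 of the 9 counted, and that of 9 endothelium markers was 36.2 to 42.2 CPM against 23.7 to 31.9 CPM, with 5 to 7 counted. Astrocyte (1.47 to 4.36 against 0.525 to 0.893 CPM), oligodendrocyte (46.8 to 48.9 against 38.6 to 41.4 CPM) and macrophage markers (3.58 to 4.69 against 2.61 to 3.55 CPM) were also higher in sum. The astrocyte sums were only 21 to 65 counts against 8 to 14, and the macrophage sums 51 to 70 against 36 to 54. At an adjusted p under 0.05, 0 of 2 tested astrocyte, 0 of 4 macrophage and 1 of 5 oligodendrocyte markers were higher, and none was lower. Lymphocyte (17.2 to 19.7 against 24.3 to 28.0 CPM) and testis germ cell markers (15.6 to 19.5 against 19.8 to 20.7 CPM) were lower in sum, but not in every gene. Of 3 tested lymphocyte markers, 2 lay above 0 (median 1.32, or -0.009 without replicate 1). Of these 3, 1 was called higher and 1 fell at an adjusted p under 0.05. Of 2 tested testis germ cell markers, 1 was called higher and 1 fell at an adjusted p under 0.05. Against Scramble siRNA A the 6 tested neuron markers had a median of 0.02, with 3 above and 3 below 0. The part of these markers in the lists was not tested. Of 50 axon guidance genes, 20 rose (40%, against 11% of all tested genes) and 3 fell (6%, against 10.4%). The median was 0.46, and 6 were called higher (12.0%, against 3.2%). *Nrp1*, the neuropilin co-receptor of semaphorins and VEGF, had 93.4, 107 and 107 CPM against 21.9, 22.5 and 22.3 CPM (log2 fold change 2.20, SE 0.10, adjusted p = 3.92e-11, edgeR). With 91.9, 87.8 and 97.0 CPM in Scramble siRNA A, the groups were indistinguishable there (0.15, adjusted p = 0.307, edgeR). *Plxna4* (1.27), a semaphorin receptor, followed the same pattern (-0.01 against Scramble siRNA A). The ephrin ligand *Efna4* (3.35) rose from 0.263, 0.290 and 0 CPM to 1.94, 1.47 and 2.33 CPM. The median of the list was 0.01 against Scramble siRNA A, with 7 higher and 7 lower.

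Of 40 potassium channel genes, 16 rose (40%, against 11% of all tested genes) and none fell, with a median of 0.33 and 4 called (10.0%, against 3.2%). The median was 0.16 against Scramble siRNA A, with 3 higher and 2 lower at an adjusted p under 0.05 and 2 called. *Kcnk6* (2.92), a potassium leak channel, rose from 0.394, 0.435 and 0.510 CPM to 3.48, 3.65 and 3.23 CPM, and *Kcnmb2* (1.96), an auxiliary subunit of the BK channel, from 0.919, 0.652 and 0.829 CPM to 3.48, 2.95 and 3.02 CPM. Both were also called against Scramble siRNA A (1.57 and 1.75). Of 24 sodium and calcium channel genes, 9 rose (37.5%, against 11%) and 1 fell (4.17%, against 10.4%). The median was 0.28, or 0.01 against Scramble siRNA A with 5 higher and 6 lower. The T-type channel *Cacna1g* (1.25) rose from 21.7, 22.7 and 20.3 CPM to 48.8, 52.8 and 52.1 CPM, with 37.2 to 44.9 CPM in Scramble siRNA A.

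Of the 22 genes of catecholamine synthesis and noradrenergic identity, 10 rose (45.5%, against 11% of all tested genes) and 2 fell (9.09%, against 10.4%). The median was 0.35, with 3 called higher (13.6%, against 3.2%). *Dbh*, dopamine beta-hydroxylase, which makes noradrenaline, had 3.48, 3.16 and 3.77 CPM against 0.591, 0.797 and 0.446 CPM (log2 fold change 2.5, SE 0.34, adjusted p = 2.21e-05, edgeR). The control libraries held 9, 11 and 7 counts of it. *Ddc* (1.63), the decarboxylase before it, and *Slc18a2* (1.11), the vesicular monoamine transporter, were called as well, but had 0.31 and 0.20 against Scramble siRNA A, where *Dbh* had 1.49. *Th*, the first enzyme of the pathway, did not pass (0.33, adjusted p = 0.157, edgeR). The median of the list against Scramble siRNA A was -0.17.

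**Figure D4:**
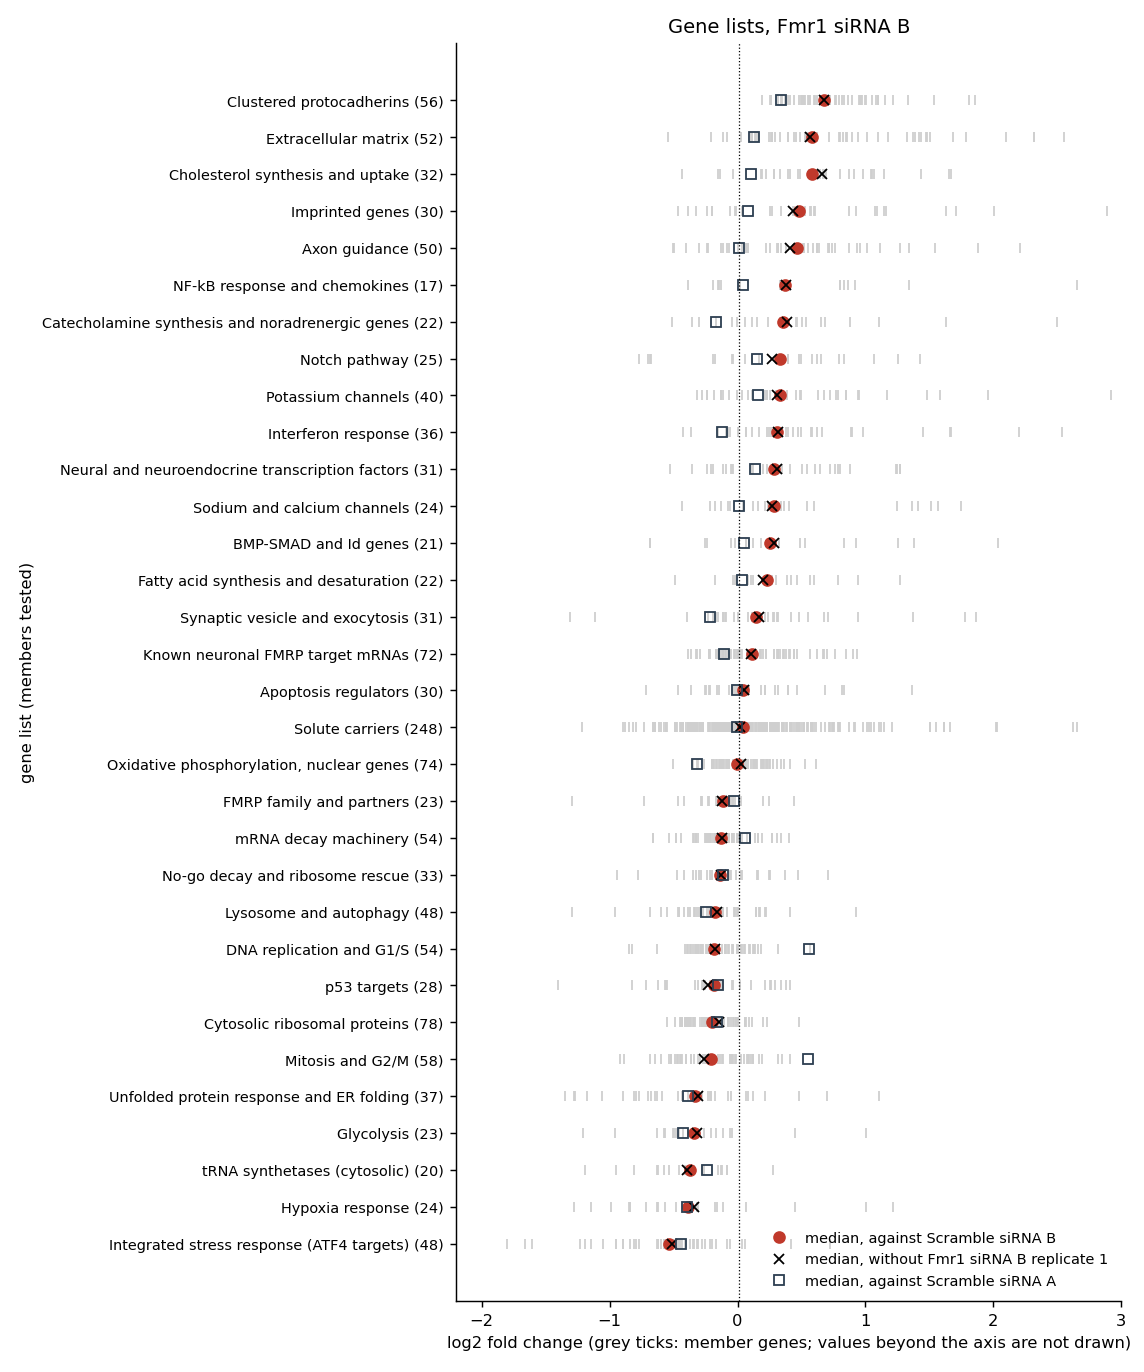
Each row is a gene list with its number of tested members, grey ticks give the members' log2 fold changes against Scramble siRNA B (those beyond the axis are not drawn), and symbols give the list's median against Scramble siRNA B (red circle), without *Fmr1* siRNA B replicate 1 (cross) and against Scramble siRNA A (square). The stress, ER folding and glycolysis lists lie left of 0 with all 3 symbols, crosses stay near the circles in every list, and the squares of the mitosis and DNA replication lists lie near 0.55 while their circles lie below 0.

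The 15 largest rises and 15 largest falls were taken from genes with a mean of at least 50 counts, no overlap between groups and a call that held without replicate 1. The largest rise was that of *Tet1*, a DNA demethylase highly expressed in stem cells, but it stood at 48.5 CPM in replicate 1 and at 7.23 and 5.42 CPM in the other *Fmr1* siRNA B libraries, against 2.49 to 3.48 CPM in the control. Its log2 fold change was 2.81 with replicate 1 and 1.11 without it (adjusted p = 0.00713, edgeR). *Plce1*, phospholipase C epsilon at chr19:38469411-38773474, rose more evenly, with 97.4, 108 and 105 CPM against 20.7, 25.7 and 21.4 CPM (2.20, SE 0.11, adjusted p = 4.35e-11, edgeR). Scramble siRNA A had 24.5, 26.5 and 25.1 CPM, so both controls lay at the same low level.

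Also higher against both controls among the 15 were *Irag1* (2.07), a regulator of calcium release, *Fblim1* (1.94), an adaptor of focal adhesions, *Cpne5* (1.91), a calcium-dependent phospholipid-binding protein, and *Tnnt2* (2.38), cardiac troponin T. *Shroom1* (2.37), an actin-binding protein, and *Chst15* (2.20), a chondroitin sulfotransferase, shared this pattern. *Syt3* (1.95), *Gpr153* (1.93) and *Padi3* (1.89) were called only against Scramble siRNA B, with log2 fold changes of 0.47, 0.71 and 0.40 against Scramble siRNA A. *Tnnt2* was at 5.83, 4.63 and 7.76 CPM against 1.31, 1.01 and 1.15 CPM, so its rise is one between low levels.

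Among the 15 falls, the immediate early transcription factor *Egr1* had 22.4, 27.0 and 30.1 CPM against 107, 174 and 69.8 CPM (log2 fold change -2.14, SE 0.24, adjusted p = 1.55e-06, edgeR). Scramble siRNA A had 28.8, 34.2 and 29.5 CPM, and the log2 fold change against it was -0.22. *Mamdc2* (-2.04), a matrix proteoglycan, *Prkg2* (-2.04), a cGMP-dependent kinase, *Wnt7b* (-1.61), a Wnt ligand, and the long noncoding RNA gene *Gm19705* (-2.29) were likewise high only in Scramble siRNA B. *Prkg2*, at 8.18, 8.49 and 8.24 CPM against 29.2, 33.2 and 40 CPM, was even above Scramble siRNA A (5.36 to 5.63 CPM, log2 fold change 0.59).

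Falls that held against both controls included *Galnt3*, which starts mucin-type O-glycosylation, with 18.4, 20.2 and 24.5 CPM against 67.2, 64.6 and 68.9 CPM (-1.67, SE 0.11, adjusted p = 2.59e-09, edgeR) and 51.8 to 57.6 CPM in Scramble siRNA A. *Paqr3* (-1.89), a Golgi protein that tethers RAF and SCAP, *Stard5* (-1.64), a cholesterol-binding protein induced by ER stress, *Pla2g2e* (-1.66), a secreted phospholipase, *Il2rb* (-1.55), a cytokine receptor chain, and *Gm45838* (-1.74) were also called against Scramble siRNA A. *Gm45838* (chr7:83282579-83285025) lies inside *Stard5* (chr7:83281159-83302549) on the same strand, so these 2 falls come from 1 locus. *Cyb5r1* (-1.64), a cytochrome b5 reductase, fell by 0.88 there, which is less than 2-fold.

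**Figure D5:**
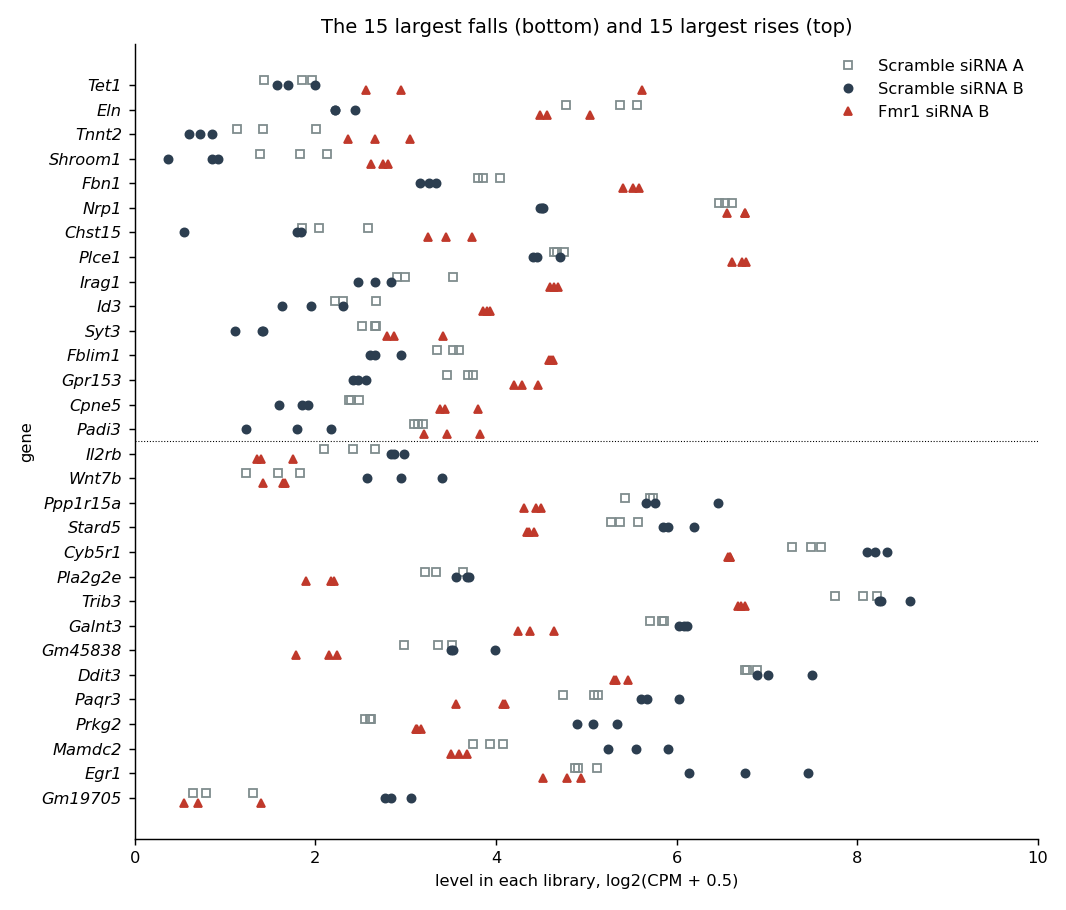
Each symbol is 1 library, with log2(CPM + 0.5) on the x axis and the 15 largest rises (above the dotted line) and 15 largest falls (below it) as rows, for *Fmr1* siRNA B (red triangles), Scramble siRNA B (dark circles) and Scramble siRNA A (open squares). *Plce1*, *Fbn1* and *Id3* have both controls well to the left of the red triangles, whereas the open squares of *Nrp1*, *Eln*, *Prkg2* and *Egr1* lie near the red triangles or on the far side of them, and 1 triangle of *Tet1* lies far to the right of the other 2.

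*Id3*, *Dbh*, *Map3k8* and *Tbr1* were the transcripts that the study followed up as candidates of decay through FMRP, and it chose them on data that include these libraries, so their direction is not independent evidence. *Id3*, an inhibitor of helix-loop-helix factors at chr4:135870808-135873066, had 13.9, 14.7 and 14.4 CPM against 4.47, 2.61 and 3.38 CPM, with a log2 fold change of 2.03 (SE 0.19, adjusted p = 2.05e-07, edgeR) and of 1.58 against Scramble siRNA A. *Map3k8*, a kinase upstream of ERK, had 22, 12 and 13 counts against 3, 1 and 4 (2.53, SE 0.52, adjusted p = 0.00138, edgeR). *Tbr1*, a cortical T-box factor, had 11, 10 and 5 counts against 4, 1 and 6, overlapped between groups and did not pass (1.25, SE 0.61, adjusted p = 0.159, edgeR). The depth thus gave firm values for *Id3* and left *Tbr1* undetermined. Among the other Id genes, *Id4* rose by 0.93 but was lower than in Scramble siRNA A (-1.41), and *Id1* (0.12) and *Id2* (0.28) did not pass.

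Of the 21 BMP, SMAD and Id genes, 6 rose (28.6%, against 11% of all tested genes) and 2 fell (9.52%, against 10.4%). The median was 0.26, or 0.05 against Scramble siRNA A, and 3 were called higher (14.3%, against 3.2%). Besides *Id3* the calls were *Atoh8* (1.38) and *Acvrl1* (1.26), a BMP-responsive transcription factor and a BMP receptor. Of 25 Notch pathway genes, 8 rose (32%, against 11%) and 2 fell (8%, against 10.4%). The median was 0.34, or 0.15 against Scramble siRNA A with 4 higher and 2 lower. *Notch1* (1.42) had 12.3, 7.02 and 8.51 CPM against 4.01, 2.97 and 3.38 CPM, and 1.16 without replicate 1. Scramble siRNA A had 6.51 to 7.60 CPM of *Notch1*, and the change against it did not pass (0.40, adjusted p = 0.189, edgeR). *Dtx1* (1.25), a Notch regulator, rose from 8.6, 11.6 and 12.4 CPM to 22.9, 26.1 and 28.7 CPM.

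The machinery of no-go decay changed little. Of its 33 tested genes, 5 fell (15.2%, against 10.4% of all tested genes) and 2 rose (6.06%, against 11%). None was called, and the median was -0.14, or -0.12 against Scramble siRNA A. *Zfp598* had 90.5, 96.6 and 105 CPM against 111, 118 and 128 CPM (log2 fold change -0.29, SE 0.12, adjusted p = 0.0818, edgeR). The groups did not overlap, but the difference did not pass. *Gtpbp2* (-0.94), a ribosome rescue GTPase, and *Ascc2* (-0.78), a subunit of the complex that splits collided ribosomes, fell, and *Skic2* (0.70), the exosome helicase, rose. Of 54 genes of general mRNA decay, 8 fell (14.8%, against 10.4%) and none rose (median -0.13), with *Upf3a* and *Cnot6* at -0.66 each. This list turned with the control, since its median was 0.06 against Scramble siRNA A, with 6 higher and 2 lower at an adjusted p under 0.05.

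Known neuronal FMRP target mRNAs showed no called change. Of 72 tested, 20 rose (27.8%, against 11% of all tested genes) and 6 fell (8.33%, against 10.4%). The median was 0.11, and the values ranged from -0.39 to 0.93. Against Scramble siRNA A the median was -0.11, with 6 higher and 12 lower at an adjusted p under 0.05, so the direction of the list turned with the control.

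Cell cycle genes also turned. Of 58 genes of mitosis, 19 fell (32.8%, against 10.4% of all tested genes) and 3 rose (median -0.21). Of 54 genes of DNA replication, 9 fell (16.7%) and 1 rose (median -0.18), and none was called in either list. Against Scramble siRNA A the medians were 0.55 and 0.56, with 45 and 40 members higher and none lower at an adjusted p under 0.05. *Plk4*, the kinase of centriole duplication, had 54.1, 47.2 and 47.9 CPM against 87.2, 90.3 and 104 CPM in Scramble siRNA B and 39.3 to 44.8 CPM in Scramble siRNA A. *Mcm6*, a subunit of the replicative helicase, was above both, with 91.7, 91.1 and 99.5 CPM against 55.7 to 70.2 CPM and 37.4 to 46.8 CPM. In all, 54 of the 58 mitosis genes and 52 of the 54 replication genes had a log2 fold change above 0 against Scramble siRNA A, whereas 14 of each list did against Scramble siRNA B.

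In several lists some called members depended on replicate 1, the library with stem cell markers. Without it the higher calls went from 15 to 11 in solute carriers and from 3 to 1 in NRF2 and glutathione genes. In cholesterol genes they went from 6 to 8. The log2 fold change of *Zfp518a* went from 2.06 to 0.83 and that of *Abcc4* from 3.40 to -1.17. In the 3 lists described next, the medians hardly moved without replicate 1. Of 30 imprinted genes, 16 rose (53.3%, against 11%) and 1 fell, with a median of 0.48 and 8 called higher (26.7%, against 3.2%). Without replicate 1 the median was 0.43 with 5 called, and against Scramble siRNA A it was 0.08, with 3 higher, 3 lower and none called. *Peg13* (1.09) had 83.0, 92.5 and 99.0 CPM against 42.9, 48.2 and 37.6 CPM and held without replicate 1 (1.15). Against Scramble siRNA A (68.6 to 78.9 CPM) *Peg13* was at 0.31 and was not called. *Meg3* (1.71), named after its values were seen, had 16.6 CPM in replicate 1 and 3.44 and 2.68 CPM in the others, and 0.39 without replicate 1. It did not pass without Scramble siRNA B replicate 1 or 3 either (adjusted p = 0.0571 and 0.0641, edgeR). Of 36 interferon response genes, 6 rose (16.7%, against 11%), none fell and 5 were called (median 0.31), and 3 were called without replicate 1, at the same median. *Ifitm3* (1.45), which blocks virus entry, had 4.96, 3.79 and 5.22 CPM against 1.38, 1.88 and 1.85 CPM and did not rest on that library. Against Scramble siRNA A the median of this list was -0.12. Of 17 genes of the NF-kB response, 8 rose (47.1%, against 11%) and none fell (median 0.37, or 0.38 without replicate 1 and 0.04 against Scramble siRNA A). The calls of this list (11.8%, against 3.2%), *Icam1* (2.66) and *Bcl3* (1.34), were both lost without replicate 1 (1.33 and 0.83). The part of the stem cell markers in these calls was not tested.

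Among nuclear oxidative phosphorylation, cytosolic ribosomal protein and lysosome genes, 1 was called. Of 74 nuclear genes of oxidative phosphorylation, 3 rose (4.05%, against 11% of all tested genes) and 1 fell (1.35%, against 10.4%), with a median of -0.00. Against Scramble siRNA A 15 were lower (median -0.31). All 12 tested mitochondrially encoded genes lay below 0 (median -0.53, -0.77 without replicate 1 and -0.57 against Scramble siRNA A). Of these, 2 fell (16.7%, against 10.4% of all tested genes) and *mt-Co3* was called (-1.19, adjusted p = 0.0251, edgeR). *mt-Co3* did not pass without replicate 1 (adjusted p = 0.0510, edgeR) and was at -0.34 against Scramble siRNA A. Of 78 cytosolic ribosomal protein genes, 6 fell (7.69%, against 10.4%) and none rose, with 69 of the 78 below 0 (median -0.20, and -0.16 against Scramble siRNA A). Of 48 lysosome and autophagy genes, 12 fell (25.0%, against 10.4% of all tested genes) and 1 rose, with 39 of the 48 below 0 and a median of -0.18. Scramble siRNA A gave a median of -0.25 with 20 lower and none higher. The called fall, *Atg12*, the ubiquitin-like protein of autophagosome formation, had 42, 40 and 40.8 CPM against 104, 100 and 96.9 CPM (-1.29, SE 0.08, adjusted p = 2.1e-09, edgeR) and 76.8 to 84.4 CPM in Scramble siRNA A (-0.98).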

How the data were processed

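RNA was sequenced from 18 N2A samples, and the authors deposited 1 table of raw exon counts per gene. The submitters' processing notes name Trim Galore, STAR, featureCounts and GRCm39, with no versions, and strand use in counting is not given in the sources used here, so overlapping and antisense genes are uncertain. Counts were tested with edgeR 4.0.16 (R 4.3.3) in 1 model of all 6 siRNA groups, by TMM scaling, a filter of 10 counts (15 in total) and the quasi-likelihood test. A gene was called at a Benjamini-Hochberg adjusted p under 0.05 and a change over 2-fold. SE is the size of the log2 fold change divided by the square root of the F statistic. CPM used TMM-scaled library totals. Gene positions came from GENCODE M39, and 98.8% of the 55414 gene IDs matched it.

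The genes named were the target, its paralogs, *Zfp598* and 4 genes followed by the study, the 15 largest rises and falls (a mean of at least 50 counts, no overlap, called also without *Fmr1* siRNA B replicate 1), and up to 4 called members in each direction of each list. Other list members were named for their role or after their values were seen. The comparison, its gene lists and their members were chosen with earlier results of these data known. Alternatives were other scalings and filters, DESeq2 1.42.0, a test against 2-fold, other controls, a replicate block and the leaving out of each library. The fits were checked on simulated counts. Results for a few genes are not reported here.

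Replicate numbers were not taken to pair the samples. The deviations of same-numbered libraries from their group means correlated at 0.082, 0.130 and 0.144 over 12431 genes, which is under 0.1 in 1 of 3 pairs. The other pairings ranged from -0.186 to 0.104, so these values do not settle whether the numbers mark pairs. Replicates of a group differed by more than counting noise, and none was counted as a repeat of another.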

Additional observations from a re-analysis of the deposited data

How the results depend on the processing

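The numbers of genes called higher and lower (608 and 185) stayed within 1.5 times under RLE scaling, DESeq2 (547 and 172), no filter (887 and 197), the 6 libraries alone, scaling by total counts, leaving out the most counted feature, and leaving out each library in turn (479 to 587 and 153 to 200). They moved further to 33 and 15 with glmTreat, which tests against 2-fold itself, to 209 and 99 among genes with a mean of at least 50 counts, where fewer genes are tested, to 338 higher against Scramble siRNA A, and to 95 lower against all 6 Scramble libraries. Without each library, 1494 to 1648 genes were higher and 1511 to 1603 lower at an adjusted p under 0.05, and *Fmr1* ranged from -1.33 to -1.26. With total counts 1060 genes were lower at an adjusted p under 0.05, in place of 1968. The replicate numbers mark no stated shared day or batch. Same-numbered libraries correlated at 0.082 to 0.144 and the other pairings at -0.186 to 0.104. The highest of the others was Scramble siRNA B replicate 1 with *Fmr1* siRNA B replicate 2. A replicate block gave 558 and 180 calls, and a replicate block in the 6 libraries alone, added after seeing the data, gave 608 and 211. At an adjusted p under 0.05 that block gave 3103 genes higher and 3138 lower, and the 6 libraries without it 2899 and 2882. The control set several directions. Against Scramble siRNA A, also added after seeing the data, the log2 fold change turned for *Eln* (-0.56), *Id4* (-1.41), *Plk4* (0.24), *Prkg2* (0.59) and *Th* (-0.57). For *Plxna4* (-0.012) and *Wnt7b* (0.00016) it was near 0, so the change was absent and not reversed. The median turned for catecholamine (-0.17), interferon (-0.12), FMRP target (-0.11), synaptic vesicle (-0.22), mitosis (0.55) and DNA replication genes (0.56), counting medians of at least 0.1 in size on both sides, with mRNA decay (0.06) below that. Against all 6 Scramble libraries the log2 fold change turned for *Id4* (-0.24) and *Th* (-0.12), and the median for mitosis (0.17), DNA replication (0.22) and, below that size, synaptic vesicle genes (-0.05). *Fxr1* (0.016 with total counts) and *Id1* (-0.088 to 0.274 without each library) turned around 0 without passing. The cause was not tested. Low counts limit *Tbr1*, *Map3k8*, *Efna4* and *Dcn*, and 3 libraries for each siRNA limit every value.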

Other observations

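Neuronal transcription factors and vesicle proteins, not described above, held more rises than falls. Of 31 tested neural and neuroendocrine transcription factors, 12 rose (38.7%, against 11% of all tested genes) and 1 fell (3.23%, against 10.4%). The median log2 fold change was 0.29, and 0.14 against Scramble siRNA A. *St18*, a zinc finger factor, had 38.4, 39.1 and 37.8 CPM with *Fmr1* siRNA B and 15.7, 17.9 and 15.2 CPM with Scramble siRNA B (log2 fold change 1.24, and 1.21 against Scramble siRNA A). *Tbx2* (1.27, and 0.74 against Scramble siRNA A), a T-box repressor, rose too, while the fall was that of *Rest* (-0.53), which represses neuronal genes outside neurons. Of 31 synaptic vesicle genes, 7 rose (22.6%, against 11% of all tested genes) and 3 fell (9.68%, against 10.4%). The median was 0.14, or -0.22 against Scramble siRNA A. *Cplx2* (1.37), a complexin that clamps vesicle fusion, had 58.8, 65.3 and 63.3 CPM against 22.6, 26.2 and 23.6 CPM, and *Syt4* (-1.12), a synaptotagmin, 44, 46.2 and 50.2 CPM against 101, 93.2 and 110 CPM. Against Scramble siRNA A, *Cplx2* was at 0.78 and *Syt4* at -0.53, and neither was called.

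Genes of p53 and of cell death moved in both directions. Of 28 p53 targets, 7 fell (25.0%, against 10.4% of all tested genes) and 1 rose (median -0.19, and -0.15 against Scramble siRNA A). *Rrm2b*, the p53-induced ribonucleotide reductase subunit, fell by 1.40 on the log2 scale, from 64.2, 58.4 and 64.9 CPM to 20.2, 26.6 and 24.3 CPM. Against Scramble siRNA A its log2 fold change was -0.87, and it was not called. Of 30 apoptosis regulators, 6 rose (20.0%, against 11%) and 4 fell (13.3%, against 10.4%), with a median of 0.04, and *Bmf*, a BH3-only activator of cell death, was the one called, with 50.7, 57.8 and 60.1 CPM against 22.2, 23 and 20.4 CPM (log2 fold change 1.36, and 0.83 against Scramble siRNA A). Of 248 solute carriers, 39 rose (15.7%, against 11%) and 35 fell (14.1%, against 10.4%), with a median of 0.04. *Slc19a2*, a thiamine transporter, fell by 1.22, to 22.4 to 24.6 CPM from 54.5 to 56.1 CPM, and Scramble siRNA A stood between at 26.9 to 33.6 CPM.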
